A study of Mus musculus with 9 samples.

Results

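Müller glia are the principal glial cells of the retina and span its whole thickness. They take up glutamate and convert it to glutamine, carry potassium and water out of the neural tissue, and take part in the recycling of visual chromophore. Their mature identity is held by transcription factors that retinal progenitors also express, among them SOX proteins, the LIM-homeodomain factor Lhx2 and the Notch effector Hes1, and these factors are known to stand upstream of several glial genes. The expression of 10 Müller glia identity genes was examined here, out of 55487 genes in the count table. The genes were chosen by name, with earlier results of these data known: 5 transcription factors (Sox2, Sox8, Sox9, Lhx2 and Hes1) and 5 homeostatic genes (Rlbp1, Glul, Slc1a3, Aqp4 and Kcnj10). All 10 passed the filter on low counts and were tested together with the rest of the 21049 genes that passed it.

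Explants were made from retinas of C57BL/6J mice, wild type and at postnatal day 28, and were kept for 48 h in Neurobasal-A medium with 5 mM glucose. The control group had no inhibitor (5 libraries). The other group had 2-DG (2-deoxy-D-glucose) at 20 mM, a glucose analog that cannot be metabolized through glycolysis and inhibits it (4 libraries). Sclera and retinal pigment epithelium (RPE) had been removed at dissection, and all retinas spent 1 h in Krebs' Ringer medium at the end. The libraries are labelled as biological replicates of 1 batch, without saying whether a library holds 1 retina or a pool, so p-values measure the spread between these libraries. RNA was taken from whole explants, and a lower level can therefore come from fewer glial cells or from less RNA per cell, which cannot be told apart.

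The libraries held 11318087 to 51802230 estimated counts. Levels are given as CPM (counts per 1e06 counts of the scaled library size), on which 3 counts correspond to 0.0556 to 0.255 CPM. Every member was above this limit in every library, the lowest value being 1.02 CPM (12 counts) of Kcnj10 in 2-DG replicate 1. The tissue label could be checked on 20 other genes of Müller glia, all of which passed the filter and which summed to 1647 to 3965 CPM. Several libraries stood apart. Control replicate 2 had the lowest mean correlation with the other libraries (r = 0.893 across genes) and 41429.7 CPM of 8 rod photoreceptor markers, against 4765 to 15715 in the others. In 2-DG replicate 3, 10 RPE markers summed to 282 CPM, against 11.6 to 43.1. Control replicate 5 (r = 0.903) and 2-DG replicate 4 (r = 0.917) also correlated less with the others than 2-DG replicate 3 did (0.926), and held the highest sums of 6 endothelial markers, 2038 and 2800.1 CPM against 278 to 1076 in the other libraries. Fits without control replicate 2 or 2-DG replicate 3 are given beside the members whose values they move, and the plot of fold changes shows both for every member.

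Most members had a lower fitted level in 2-DG explants, and none passed the adjusted threshold of the main test. In the fit over all 9 libraries 5 of 5 transcription factors and 3 of 5 homeostatic genes had a negative log2 fold change, with medians of -1.17 and -0.99, beside a median of -0.01 over all genes tested. The homeostatic median was -1.66 without 2-DG replicate 3, -0.63 without control replicate 5 and -0.30 with 2 surrogate variables. At an unadjusted p below 0.05, 5 of the 10 members were lower (Sox2, Sox9, Hes1, Glul and Slc1a3), where 4.83% of all genes tested were lower by that measure. None of the 10 was higher (2.42% of all genes). With edgeR's quasi-likelihood test and Benjamini-Hochberg adjustment over all genes, 0 of the 10 members and 0% of all genes passed an adjusted p of 0.05. Other tools run on the same counts called some of them lower at that threshold: DESeq2 called Sox2 and Sox9 (0.975% of all genes were called lower), edgeR with 2 surrogate variables called Sox2, Sox9 and Hes1 (2.43%), and limma-voom with sample quality weights called Sox2, Sox9, Hes1, Glul and Slc1a3 (4.27%). The count of 5 members at an unadjusted p below 0.05 varied with the libraries in the fit, while the log2 fold change of each of these 5 stayed negative with any 1 library left out. The count was 8 without 2-DG replicate 3 (4.42% of genes), 3 without control replicate 4 (3.28%) or without 2-DG replicate 4 (9.49%), and 2 when the library left out was control replicate 5 (3.32%) or replicate 1 (3.17%) or 2 (3.28%) of the 2-DG group. Without control replicate 2 it was 4 (6.07%), and without both control replicate 2 and 2-DG replicate 3 it was 8 (6.29%).

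**Figure D1:**
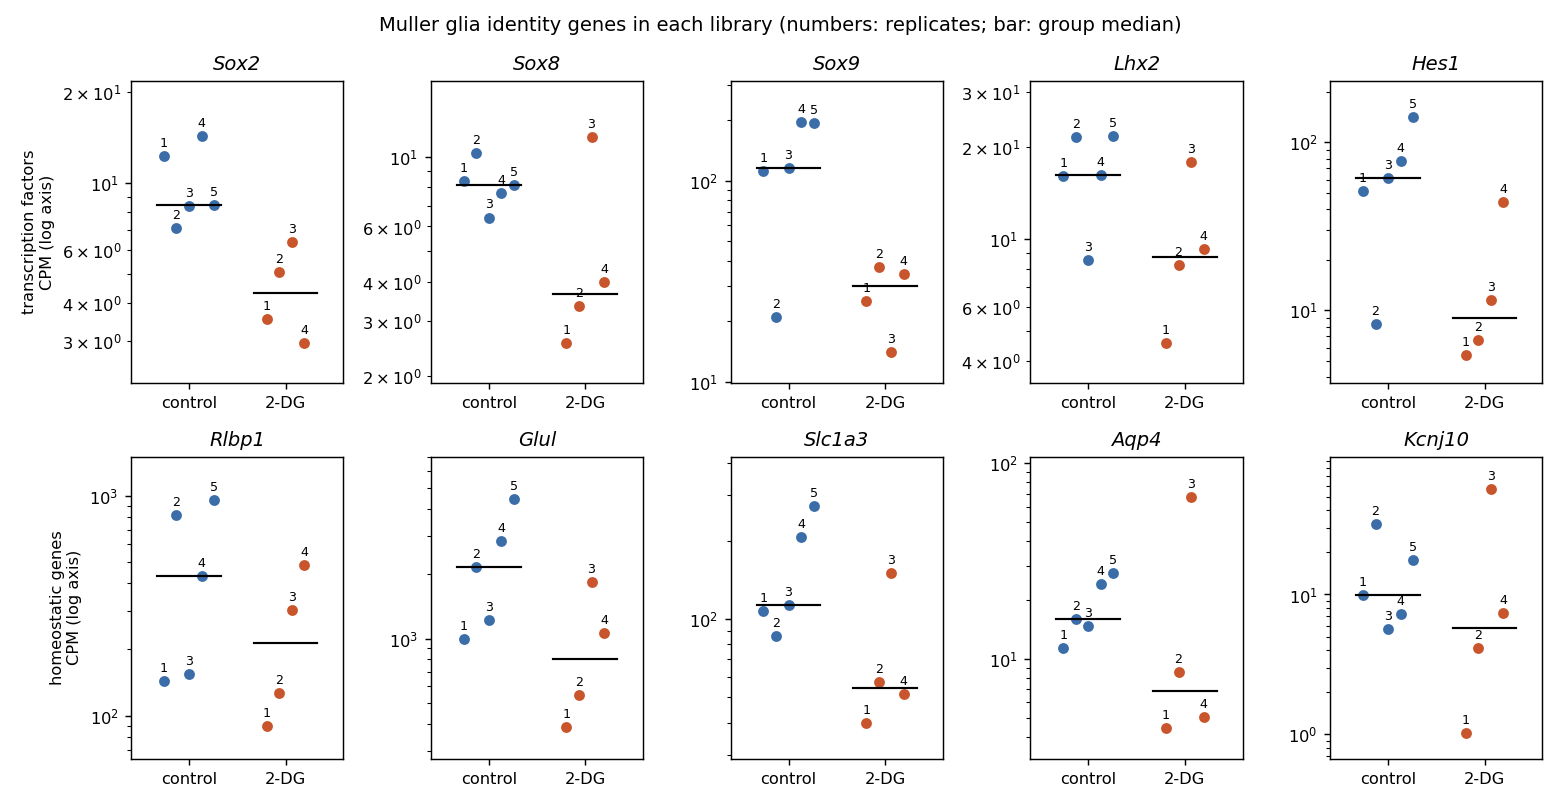
CPM of each member (log axes, 1 panel per gene) in the 5 control and 4 2-DG libraries, with replicate numbers beside the points and a bar at the group median. Sox2 is the only member whose groups do not overlap (7.09 to 14.3 CPM in control, 2.95 to 6.37 in 2-DG), Sox9 and Hes1 overlap through control replicate 2, and Aqp4 and Kcnj10 reach their highest values in 2-DG replicate 3.

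Sox9, an HMG-box factor that marks Müller glia nuclei in the adult retina, had the most negative change of the members in the edgeR fit over all libraries. Its gene lies at chr11:112782224-112787760 on the plus strand (GRCm38). Sox9 measured 112, 20.9, 115, 196 and 194 CPM in control replicates 1 to 5. In 2-DG replicates 1 to 4 it measured 25.2, 37.2, 14 and 34.3 CPM. All 4 treated libraries lay below 4 of the 5 controls, and the groups overlapped only through control replicate 2. This gave a log2 fold change of -2.20 (SE 0.57), a 4.6-fold lower level in 2-DG (unadjusted p = 0.00277, edgeR adjusted p = 0.524). Without control replicate 2 it was -2.48 (SE 0.35, edgeR adjusted p = 0.057), the nearest any member came to the threshold when a single library was left out. Hes1 was more negative than Sox9 with limma-voom (-3.20 against -2.30), on the deposited CPM (-2.06 against -2.01), without 2-DG replicate 4 (-3.10 against -2.32) and by the ratio of group medians (-2.76 against -1.95).

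Sox2, the pluripotency and progenitor factor that in the mature retina persists in Müller glia and in some amacrine cells, was the member whose groups did not overlap. The gene has a single exon and lies at chr3:34650405-34652461 on the plus strand. Control libraries had 12.3, 7.09, 8.4, 14.3 and 8.43 CPM. Those with 2-DG had 3.56, 5.07, 6.37 and 2.95 CPM. The highest treated library was below the lowest control. Of all genes tested, 1.41% were lower in 2-DG without overlap of the groups, and Sox2 was the 1 member of 10 among them. Its log2 fold change was -1.17 (SE 0.35, 2.25-fold lower in 2-DG, unadjusted p = 0.00704, edgeR adjusted p = 0.526), and it stayed between -1.39 and -1.01 with each library left out in turn. Since Sox2 is also a gene of amacrine cells, 8 amacrine markers were summed in each library. They ranged from 80.9 to 659 CPM in control and 143 to 648 in 2-DG. By fit 6 of 8 were lower with all libraries (median -0.34, 0 at an unadjusted p below 0.05), and 7 of 8 without 2-DG replicate 3 (median -0.97, 1 at that level), where Sox2 had a log2 fold change of -1.39. The part of amacrine cells in the Sox2 values was not tested.

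Sox8, a close relative of Sox9, was low and less clearly separated. It measured 8.38, 10.3, 6.41, 7.69 and 8.17 CPM in control and 2.55, 3.33, 11.6 and 3.98 CPM in 2-DG. In this gene 3 treated libraries were below every control, while 2-DG replicate 3 was above every control. Its fitted log2 fold change was -0.60 (SE 0.45, unadjusted p = 0.211) with all libraries and -1.31 (SE 0.33, unadjusted p = 0.00287, edgeR adjusted p = 0.747) without 2-DG replicate 3. An exon of 2810468N07Rik on the opposite strand overlaps Sox8, at 1.02 to 11 CPM. Whether counting used the strand is not given in the sources used here, so the values of Sox8 carry that uncertainty.

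Lhx2, which is required for eye formation and for the glial programme of the mature retina, behaved much as Sox8 did. Control replicates had 16, 21.4, 8.55, 16.1 and 21.6 CPM, and treated replicates 4.58, 8.21, 17.8 and 9.27 CPM. Only 2 of the treated libraries were below every control, and 2-DG replicate 3 lay within the control range. The log2 fold change was -0.74 (SE 0.41, unadjusted p = 0.0976) over all libraries and -1.18 (SE 0.39, unadjusted p = 0.0134, edgeR adjusted p = 0.747) without 2-DG replicate 3.

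Hes1, a basic helix-loop-helix repressor induced by Notch signalling, varied most among the transcription factors. Its control values were 51.1, 8.3, 61.2, 77.5 and 140.4 CPM, and its 2-DG values 5.43, 6.63, 11.5 and 44.4 CPM. Of the controls, replicate 2 was as low as the treated libraries, and 2-DG replicate 4 came close to the low end of the remaining controls. Hes1 had a log2 fold change of -1.99 (SE 0.80, 3.97-fold lower, unadjusted p = 0.0314, edgeR adjusted p = 0.656). It was -2.28 (SE 0.69, unadjusted p = 0.00904) without control replicate 2 and -3.10 without 2-DG replicate 4. Its edgeR quasi-likelihood test was above an unadjusted p of 0.05 without 2-DG replicate 3 (-1.84, 0.078), 2-DG replicate 1 (-1.69, 0.0756), 2-DG replicate 2 (-1.72, 0.0787) or control replicate 5 (-1.55, 0.0755), each pair being the log2 fold change and the unadjusted p.

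Among the homeostatic genes, Glul was the most abundant. It encodes glutamine synthetase, which in the retina is a classical Müller glia enzyme, and lies at chr1:153899944-153909723 on the plus strand. Control replicates 1 to 5 had 997, 2154, 1216, 2848 and 4444 CPM, and 2-DG replicates 1 to 4 had 389, 546, 1843 and 1063 CPM. Replicates 1 and 2 of the treated group were below every control and the other treated libraries lay inside the control range. The log2 fold change was -1.28 (SE 0.58, 2.43-fold lower, unadjusted p = 0.049, edgeR adjusted p = 0.689). Without control replicate 2 it was -1.31 (unadjusted p = 0.0648), and without 2-DG replicate 3 it was -1.80 (unadjusted p = 0.0146). By the edgeR quasi-likelihood test it was also above an unadjusted p of 0.05 without control replicate 4 (-1.23, 0.0839) or 5 (-0.92, 0.122), and without 2-DG replicate 1 (-1.01, 0.121), 2 (-1.08, 0.125) or 4 (-1.33, 0.0704), each pair being the log2 fold change and the unadjusted p. An overlapping gene on the opposite strand, Teddm2, had at most 10.3 CPM.

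Slc1a3, which encodes the glutamate transporter GLAST, was at 108, 86.1, 113, 207 and 274 CPM in control and at 39.9, 57.4, 151 and 51.6 CPM in 2-DG. Here 3 of 4 treated libraries were below every control, and 2-DG replicate 3 was above 3 of the 5 controls. Slc1a3 had a log2 fold change of -1.07 (SE 0.47, 2.1-fold lower, unadjusted p = 0.0453, edgeR adjusted p = 0.689) and -1.66 (SE 0.42, unadjusted p = 0.0031) without 2-DG replicate 3. The edgeR quasi-likelihood test of Slc1a3 was above an unadjusted p of 0.05 without control replicate 4 (-0.98, 0.0861) or 5 (-0.79, 0.11), and without 2-DG replicate 1 (-0.85, 0.12), 2 (-0.96, 0.108) or 4 (-0.93, 0.105), each pair being the log2 fold change and the unadjusted p.

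Rlbp1 encodes the retinaldehyde-binding protein CRALBP, which serves the visual cycle in Müller glia and also in the RPE. Its control libraries differed by up to 6.62-fold. The values were 144, 813, 155, 429 and 953 CPM in control and 89.5, 127, 303 and 486 CPM in 2-DG. Treated replicates 1 and 2 lay below every control, and the groups otherwise overlapped. For Rlbp1 this gave a log2 fold change of -0.99 (SE 0.68, unadjusted p = 0.174). Because Rlbp1 is shared with the RPE, RPE markers are given beside it. Dct, a melanin synthesis enzyme, had 1.07 to 3.23 CPM in control and 1.36, 1.96, 89.5 and 9.07 CPM in 2-DG replicates 1 to 4. Ttr, the transthyretin of RPE and choroid plexus, reached 49 CPM in 2-DG replicate 3 and 12.3 CPM in 2-DG replicate 4, and at most 2.37 CPM in any other library. Rpe65, the visual cycle isomerase that defines the RPE, had 360 counts in 2-DG replicate 3, 11 in 2-DG replicate 4 and 0 to 2 in every other library. Not all RPE markers peaked there. Best1 (0.704 CPM) and Rdh5 (6.89 CPM) in 2-DG replicate 3 lay within their control ranges, 0.215 to 1.31 and 3.19 to 8.89 CPM. Both were lower by fit (-0.68, SE 0.56, and -0.32, SE 0.48). With 1 library left out, the log2 fold change of Rlbp1 ranged from -1.53 (unadjusted p = 0.0603) without 2-DG replicate 4, which held its highest treated value, to -0.63 without control replicate 5. It was -0.74 without control replicate 2, -1.09 without 2-DG replicate 3 and -0.30 with 2 surrogate variables.

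Aqp4, the water channel of glial endfeet, and Kcnj10, the inward rectifier potassium channel Kir4.1 that sits beside it, were the pair of members with a positive fitted change. Aqp4 was at 11.3, 16, 14.7, 24.1 and 27.6 CPM in control and at 4.41, 8.59, 67.3 and 5.03 CPM in 2-DG. Kcnj10 was at 9.92, 31.7, 5.65, 7.27 and 17.5 CPM in control and at 1.02, 4.14, 56.4 and 7.32 CPM in 2-DG. For both genes 2-DG replicate 3 was the highest of all 9 libraries. The other 3 treated libraries were below every control for Aqp4, and for Kcnj10 a pair of them was.

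The sign of the fitted change of both channels turned with that library and with the scale of the fit. The log2 fold change of Aqp4 was 0.19 (SE 0.75, unadjusted p = 0.807) with it and -1.63 (SE 0.40, unadjusted p = 0.00254, edgeR adjusted p = 0.747) without it. For Kcnj10 the values were 0.27 (SE 0.94, unadjusted p = 0.783) and -1.77 (SE 0.74, unadjusted p = 0.0401, edgeR adjusted p = 0.781). The ratio of group medians, which a single library moves less, was below 1 for both (log2 ratio -1.24 for Aqp4 and -0.79 for Kcnj10). With all 9 libraries, the change was also negative with limma-voom and quality weights (-1.21 and -1.37) and on log2(deposited CPM + 1) (-0.73 and -0.71), as it was over replicates 1 to 4 with a replicate block (-0.72 and -0.92), none of these at an unadjusted p below 0.05. Gfap, an intermediate filament of astrocytes and reactive Müller glia, was also highest in 2-DG replicate 3, at 144 CPM against 19.8 to 86.3 in the other libraries, as was Apoe, a lipid carrier of Müller glia and astrocytes (396 CPM against 30.7 to 337). Both were named after their values were seen, and other reactive glia genes differed: Nes (80.9 CPM) and Edn2 (22.2 CPM) were lowest of all libraries in 2-DG replicate 3, and the 10 reactive gliosis genes summed to 1772 CPM there, within the range of the other 2-DG libraries (1752 to 2820.2). The part of these genes in the values of Aqp4 and Kcnj10 was not tested.

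Values of Aqp4 carry a further uncertainty from the deposited tables. For the other 9 members the value in the gene table was 0.746 to 1.31 times the sum of the gene's transcript counts. For Aqp4 this ratio was 1.1 to 2.29 in 7 libraries, 5.2 in 2-DG replicate 1 and 29.3 in 2-DG replicate 4, where 6 transcript counts stood against 176 gene counts. By summed transcript counts, Aqp4 was at 7.43, 9.27, 9.17, 10.6 and 17.4 CPM in control and at 0.85, 7.77, 39.5 and 0.173 CPM in 2-DG, which spreads the treated libraries further apart and leaves the fitted change near 0 (0.17, SE 1.06). With such sums for all genes, 4 of the 10 members were lower at an unadjusted p below 0.05 (4.90% of all genes), Slc1a3 being just above it (0.0589).

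**Figure D2:**
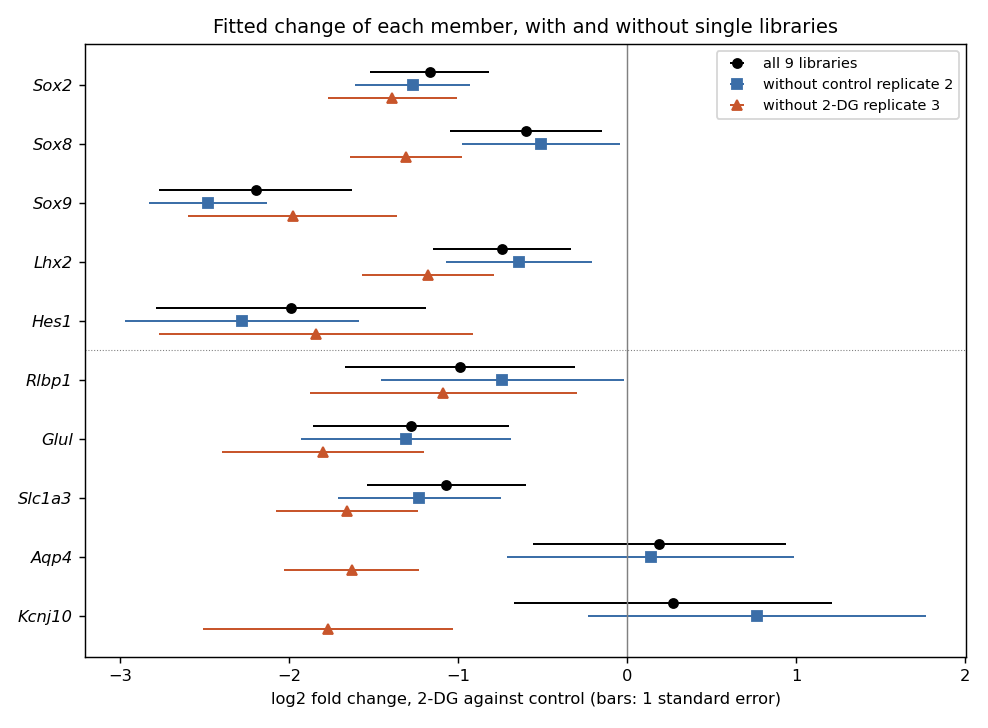
Log2 fold change of each member, 2-DG against control, with bars of 1 standard error, for all 9 libraries (circles), without control replicate 2 (squares) and without 2-DG replicate 3 (triangles). All 10 members lie below 0 without 2-DG replicate 3, where Aqp4 and Kcnj10 move from 0.19 and 0.27 to -1.63 and -1.77, while the Sox9 value stays between -2.48 and -1.98.

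Groups that do not overlap were counted again with libraries left out, which can only add to the count of 1 member (Sox2) over all libraries. Without 2-DG replicate 3, 4 of the 10 members were lower in every treated library than in every control (Sox2, Sox8, Slc1a3 and Aqp4), where 2.83% of all genes were. Without control replicate 2 there were 3, all of them transcription factors (Sox2, Sox9 and Hes1; 4.47% of genes). Without both libraries there were 6, which were Sox2, Sox8, Sox9, Hes1, Slc1a3 and Aqp4 (6.42%). Aqp4 is counted here by its gene values only. By summed transcript counts its groups overlapped in both selections, with 7.77 CPM in 2-DG replicate 2 and 7.43 CPM in control replicate 1. Rlbp1, Glul, Lhx2 and Kcnj10 overlapped in each of these selections.

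The transcription factors were next set against the homeostatic genes within each library. The mean log2 CPM of the 5 transcription factors was 4.64, 3.62, 4.33, 4.94 and 5.06 in control replicates 1 to 5 and 2.52, 3.03, 3.55 and 3.48 in 2-DG replicates 1 to 4. All treated libraries were below all controls on this mean, with group means of 4.52 ± 0.58 and 3.14 ± 0.48 (SD). For the homeostatic genes the means were 6.14, 7.23, 6.15, 7.08 and 7.81 in control and 4.54, 5.42, 7.64 and 5.98 in 2-DG. This class overlapped, since 2-DG replicate 3 was above 4 of the 5 controls, and the group means were 6.88 ± 0.72 and 5.90 ± 1.31.

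The difference between the classes, transcription factors minus homeostatic genes, did not separate the groups. It was -1.50, -3.61, -1.82, -2.14 and -2.75 log2 units in control and -2.02, -2.40, -4.10 and -2.50 in 2-DG, with means of -2.36 ± 0.84 and -2.75 ± 0.92. The shift between the groups, -0.39, was smaller than the SD of either group. Control replicate 2 and 2-DG replicate 3 had the lowest differences of their groups. Without 2-DG replicate 3 the shift was 0.06, and without control replicate 2 it was -0.70. The difference was described without a test, so no change of one class relative to the other is claimed.

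**Figure D3:**
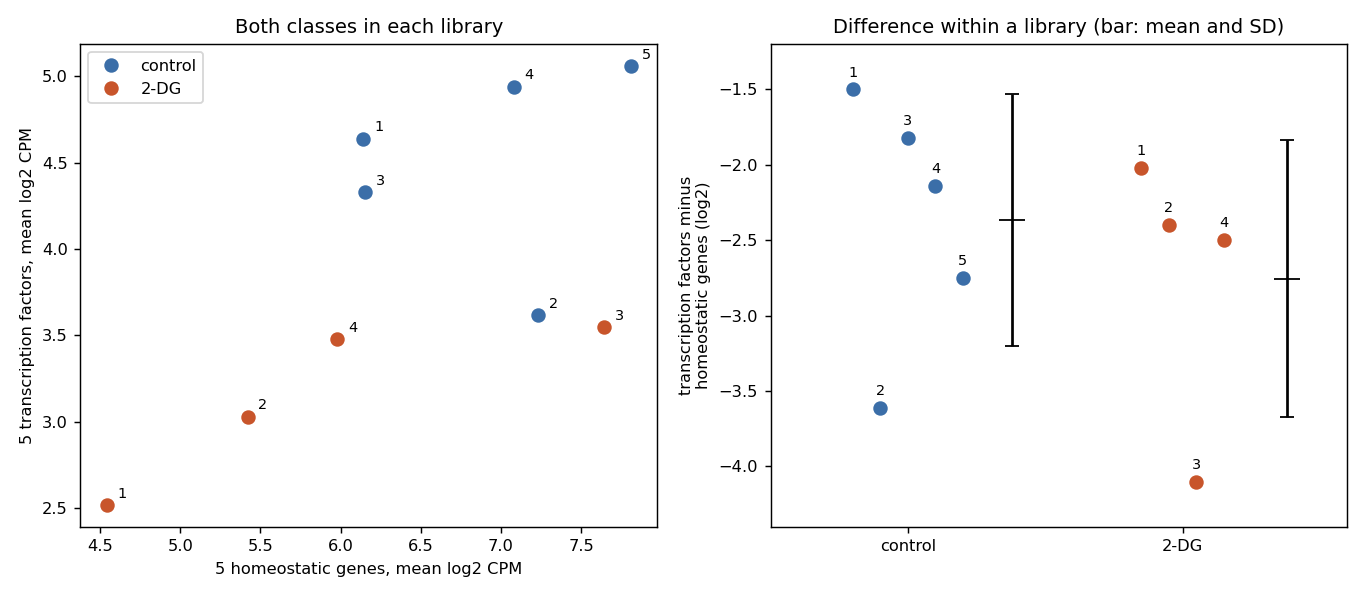
Left, mean log2 CPM of the 5 transcription factors against that of the 5 homeostatic genes, 1 point per library with its replicate number. Right, the difference between the classes in each library with the group mean and SD (-2.36 ± 0.84 in control, -2.75 ± 0.92 in 2-DG); the 2-DG points lie below the control points on the transcription factor axis, while control replicate 2 and 2-DG replicate 3 lie lowest on the difference.

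Levels were compared between members per transcript length, as TPM (counts divided by length and scaled to the same total in each library) computed from the transcript counts and the annotated lengths. By median TPM in control the order was Glul (1349), Rlbp1 (425), Hes1 (115), Slc1a3 (69), Sox9 (67.8), Lhx2 (16.3), Sox2 (10), Aqp4 (8.37), Sox8 (6.02) and Kcnj10 (4.45). Among neighbours in this order, Glul (916 to 2902 TPM) and Rlbp1 (170.0 to 816) were the pair with separate ranges. All later neighbours overlapped over the 5 control libraries. The place of Aqp4 carries the doubt given above, since its gene values were 1.54 to 2.29 times its transcript counts in control, and its place by gene values was not computed. In 2-DG the order of medians was the same except that Slc1a3 (27.5 TPM) came before Hes1 (15.3 TPM). Sox9 had a median of 12.4 TPM there and was the fifth gene in both groups.

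At transcript level the main isoform of each transcription factor was lower in 2-DG by fit. Sox2-201, Sox9-201 and Kcnj10-201 held all counts of their genes, and Hes1-201 and Glul-201 held 92.9% and 99.2%. The log2 fold change was -1.21 (SE 0.38) for Sox2-201, -2.25 (SE 0.60) for Sox9-201, -1.91 (SE 0.83) for Hes1-201 and -1.41 (SE 0.60) for Glul-201. Rlbp1 was divided between 2 protein-coding isoforms. Rlbp1-202 held 47.9% to 66.8% of the counts of the gene in control libraries and 48.9% to 67.8% in 2-DG, so the shares covered the same range. Of 28 tested transcripts of the members, 21 were lower in 2-DG and 5 were lower at an unadjusted p below 0.05 (2.28% of all 62900 transcripts tested): the main isoforms of Sox2, Sox9, Hes1 and Glul, and Lhx2-206, a retained-intron transcript with 4.78% of the Lhx2 counts. None passed an adjusted p of 0.05 with edgeR, nor did any other transcript (0%).

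Within a group, members differed in how they moved together. After the group means were subtracted, Pearson's r of log2 CPM over the 9 libraries was 0.364 to 0.867 for the 10 pairs of homeostatic genes, with a median of 0.735. For the 10 pairs of transcription factors it was -0.48 to 0.864, with a median of 0.154. Sox9 and Hes1 varied together (0.752), while Sox8 and Lhx2 (0.864) varied with the homeostatic genes, Sox8 with Kcnj10 at 0.95 and Lhx2 with Kcnj10 at 0.926. All 9 libraries enter each value, those that stood apart included, and the values are descriptions. The genes most like Sox9 among 16847 with a mean of at least 1 CPM were Ptp4a1 (0.993), Sar1a (0.989), Irf9 (0.987), Ifit3b (0.984) and Tead1 (0.983). None of the other members was among them, Hes1 being the closest at rank 1740. The genes most like Rlbp1 were Itgb1bp1 (0.999), Snhg18 (0.985), Eps8l2 (0.984), Sfxn5 (0.979) and Rnd2 (0.974), and its closest member was Glul (0.862, rank 542).

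Promoter sequence was available from RefSeq (GRCm38.p6) for 7 of the 10 members, in 8 windows of 250 bases before an annotated start, and was searched on both strands for letters bound by the factors named above. The letters were TGGGAA for RBPJ, the DNA-binding partner of Notch, ACAAAG and ACAATG for SOX factors, CACNAG for the N-box and CANNTG for the E-box bound by HES proteins and other helix-loop-helix factors. No matches overlapped in the members' windows. The windows of 4 members are shown because they hold letters of the SOX, RBPJ or N-box motif and belong to members of both classes. Each covers the 240 bases before the start, 5′ to 3′ on the strand of the gene, with matches in capitals (E-boxes are not marked). They lie at chr3:34649755-34649994, plus strand (Sox2), chr2:38339041-38339280, plus strand (Lhx2), chr7:79387028-79387267, minus strand (Rlbp1) and chr1:153899689-153899928, plus strand (Glul). The starts are those of RefSeq and can differ from the gene positions used for the counts. The Sox2 window ends upstream of the gene position given above (34650405). The Rlbp1 window overlaps the gene, whose position ends at 79387048.
Sox2: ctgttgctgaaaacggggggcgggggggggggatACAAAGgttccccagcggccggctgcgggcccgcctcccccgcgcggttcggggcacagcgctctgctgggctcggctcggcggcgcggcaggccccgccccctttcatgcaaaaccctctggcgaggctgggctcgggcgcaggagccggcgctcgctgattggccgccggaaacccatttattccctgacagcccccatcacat
Lhx2: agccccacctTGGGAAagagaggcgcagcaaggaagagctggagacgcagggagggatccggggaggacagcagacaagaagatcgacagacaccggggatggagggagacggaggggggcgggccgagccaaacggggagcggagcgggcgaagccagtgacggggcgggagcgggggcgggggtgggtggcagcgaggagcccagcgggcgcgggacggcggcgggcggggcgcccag
Rlbp1: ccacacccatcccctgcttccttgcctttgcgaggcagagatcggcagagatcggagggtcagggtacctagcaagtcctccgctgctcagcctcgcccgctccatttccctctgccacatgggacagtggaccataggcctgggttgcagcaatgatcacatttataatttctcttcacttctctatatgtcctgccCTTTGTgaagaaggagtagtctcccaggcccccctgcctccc
Glul: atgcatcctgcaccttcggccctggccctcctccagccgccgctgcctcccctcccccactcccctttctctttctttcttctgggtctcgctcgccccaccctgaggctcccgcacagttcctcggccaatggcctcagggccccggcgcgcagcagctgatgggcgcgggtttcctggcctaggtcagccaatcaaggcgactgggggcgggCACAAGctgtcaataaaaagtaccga

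Sox2 and Rlbp1 had the SOX letters ACAAAG, at 206 and 42 bases before the RefSeq start, as did 16.5% of 32851 promoter windows. The letters ACAATG were in none of the members' windows and in 10.7% of all. Both Lhx2 windows held TGGGAA, at 230 bases before the first start and 9 before the other, where 21.6% of all windows held it. An N-box was found in Glul, 26 bases before the start, and in Slc1a3, 178 bases before it, against 36.7% of all windows, and an E-box in Sox8, Rlbp1, Glul and Slc1a3, against 66.2%. The window of Kcnj10 held none of these letters. A match describes the sequence and does not show binding. Sox9, Hes1 and Aqp4 were not searched.

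Genes that belong to the same pathways were then examined, with counts to be read beside the 4.83% of all genes that were lower and the 2.42% that were higher at an unadjusted p below 0.05. The Notch pathway maintains retinal progenitors and favours the Müller glia fate through HES repressors. Of its 24 listed genes, 2 were lower at that level (8.33%, near the share of all genes), Hes5 and Nrarp, none was higher, and the median log2 fold change was -0.01. Hes5, a Notch effector related to Hes1, had 5.23, 4.8, 5.12, 11.5 and 40.1 CPM in control and 0.764, 1.56, 1.3 and 2.97 CPM in 2-DG. All treated libraries were below all controls, with a log2 fold change of -3.00 (SE 0.77, unadjusted p = 0.00269, edgeR adjusted p = 0.524). Without control replicate 5, the highest library, the change of Hes5 was -2.01 (unadjusted p = 0.00308). Nrarp, a feedback inhibitor of Notch, had a log2 fold change of -1.10 (SE 0.38, unadjusted p = 0.0156), with groups that overlapped. The Hes5 window (chr4:154960683-154960922, plus strand) is shown as that of the pathway gene with separate groups, with RBPJ and SOX letters in capitals.
Hes5: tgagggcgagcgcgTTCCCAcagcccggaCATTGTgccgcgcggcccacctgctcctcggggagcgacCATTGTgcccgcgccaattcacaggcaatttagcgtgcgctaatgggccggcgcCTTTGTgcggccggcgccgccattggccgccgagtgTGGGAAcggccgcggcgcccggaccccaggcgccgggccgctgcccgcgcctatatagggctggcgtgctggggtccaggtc

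In this window TGGGAA or its complement lies 226 and 82 bases before the start, the letters CATTGT, the complement of ACAATG, lie at 211 and 172 bases, and CTTTGT, the complement of ACAAAG, at 118 bases.

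Of 16 other SOX genes, 12 were tested, 8 of which were lower, with a median of -0.38. Sox3 (-3.37, SE 1.15), Sox11 (-1.26, SE 0.44) and Sox5 (-0.94, SE 0.36) were lower at an unadjusted p below 0.05 (25% of the 12, against 4.83% of all genes), and none was higher. The 25% includes Sox3, which passed the filter on low counts through its control libraries, where it was higher. That share therefore only describes the list. Sox5 was above that p without control replicate 1 or 3 and without 2-DG replicate 1 or 2. Sox11 belongs to the neuronal SOXC group. It had 56.7, 9.45, 40.8, 39.7 and 35.2 CPM in control and 23.2, 12.5, 11.7 and 13.7 CPM in 2-DG, the groups overlapping through control replicate 2 as they did for Sox9. Sox3, a close relative of Sox2, had 1.31, 0, 1.76, 3.32 and 7.33 CPM in control and 0.0849, 0.0622, 0.278 and 0.572 CPM in 2-DG, and was below the 3-count limit in control replicate 2 and in 2-DG replicates 1 and 2. With 1 library left out, its log2 fold change ranged from -4.10 to -2.61.

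Of 20 other Müller glia genes 13 were lower and 7 higher by fit, with a median of -0.28. Without 2-DG replicate 3 there were 17 lower and 3 higher (median -0.43), with 4 lower and 0 higher at an unadjusted p below 0.05 (4.42% of all genes were lower in that fit). Hes5, Cyp26a1, a retinoic acid degrading enzyme (-2.23, SE 0.50), and Id1, a helix-loop-helix inhibitor (-1.20, SE 0.46), were lower at an unadjusted p below 0.05, and Vim, the intermediate filament vimentin, was higher (0.67, SE 0.29). Cyp26a1 had 5.85, 1.43, 3.21, 5.11 and 7.21 CPM in control and 0.764, 0.871, 0.871 and 1.37 CPM in 2-DG, without overlap. Vim had 217, 193, 239.7, 283 and 431 CPM in control and 358, 332, 515 and 524 CPM in 2-DG, so that all treated libraries were above 4 of the 5 controls. The Vim call held in 3 of 9 fits with 1 library left out (control replicate 5 and 2-DG replicates 1 and 2), the unadjusted p being 0.0773 without control replicate 2 and 0.106 without 2-DG replicate 3. Id1 was above 0.05 without control replicate 5 and without 2-DG replicate 1, 2 or 3 (at most 0.0689), while Hes5 and Cyp26a1 stayed below it in all 9.

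Of 20 partners of the homeostatic genes in glutamate, potassium, water and visual cycle handling, 14 were higher and 6 lower by fit, with a median of 0.15. Without 2-DG replicate 3 there were 10 in each direction (median -0.04). Dag1, the dystroglycan that anchors Aqp4 and Kcnj10 at endfeet, was higher (0.54, SE 0.22) and Rdh10, a retinol dehydrogenase, was lower (-0.67, SE 0.29) at an unadjusted p below 0.05. Neither call held throughout: Dag1 was above that p without control replicate 4 or 5 or 2-DG replicate 3 (0.103) or 4, and Rdh10 was below it only without control replicate 2 or 2-DG replicate 3. Dag1 ranged from 36.5 to 64.7 CPM in control and 62.8 to 96.9 CPM in 2-DG. Among 10 reactive gliosis genes the median was 0.10, with Vim as the gene of smallest p; without control replicate 2 the median was -0.02 and 4 of them were lower at an unadjusted p below 0.05 (6.07% of all genes).

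Several members are also genes of astrocytes, among them Aqp4, Slc1a3 and Glul, so markers of other cells were read beside them. The 5 astrocyte markers summed to 49 to 139.5 CPM in control and 41.5 to 205 CPM in 2-DG. By fit 3 of them were higher and 2 lower, with a median of 0.47 that was -0.24 without 2-DG replicate 3. The marker with an unadjusted p below 0.05 was Aldh1l1, a folate enzyme of astrocytes (-0.72, SE 0.30, unadjusted p = 0.0375), which was below it in 2 of 9 fits with 1 library left out (without control replicate 2 or 2-DG replicate 3). The RPE list was the one with the most members that were higher, 4 of the 7 tested (Dct, Ttr, Tyrp1 and Pmel) at an unadjusted p below 0.05 and with values that peaked in 2-DG replicate 3. Without that library 0 of 7 were, and the median log2 fold change went from 3.21 to 0.18. Microglia markers (6 genes) summed to 9.74 to 38.4 CPM in control and 7.37 to 47.5 in 2-DG. Their median log2 fold change was 0.13 with all libraries, with none below an unadjusted p of 0.05, and -1.49 without 2-DG replicate 3, where 6 of 6 had a negative value and 1 was below it. Of 6 endothelial markers Tek was higher (1.32, SE 0.57), a call that 6 of the 9 fits with 1 library left out did not give, among them those without control replicate 2 (unadjusted p = 0.0929), 2-DG replicate 3 (0.0736) and 2-DG replicate 4 (0.73, 0.21). The others were those without control replicate 1, 3 or 4. Without 2-DG replicate 3, 1 endothelial marker was lower and 0 were higher at an unadjusted p below 0.05 (4.42% of all genes were lower in that fit). The direction of the rod markers rested on control replicate 2: 8 of 8 were lower by fit with it and 8 of 8 were higher without it, none at an unadjusted p below 0.05, and the medians of their sums were 8259 CPM in control and 8572 CPM in 2-DG. Of 7 oligodendrocyte markers Mog, Olig1, Olig2 and Sox10 did not pass the filter. The part of these cell types in the values of the members was not tested.

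**Figure D4:**
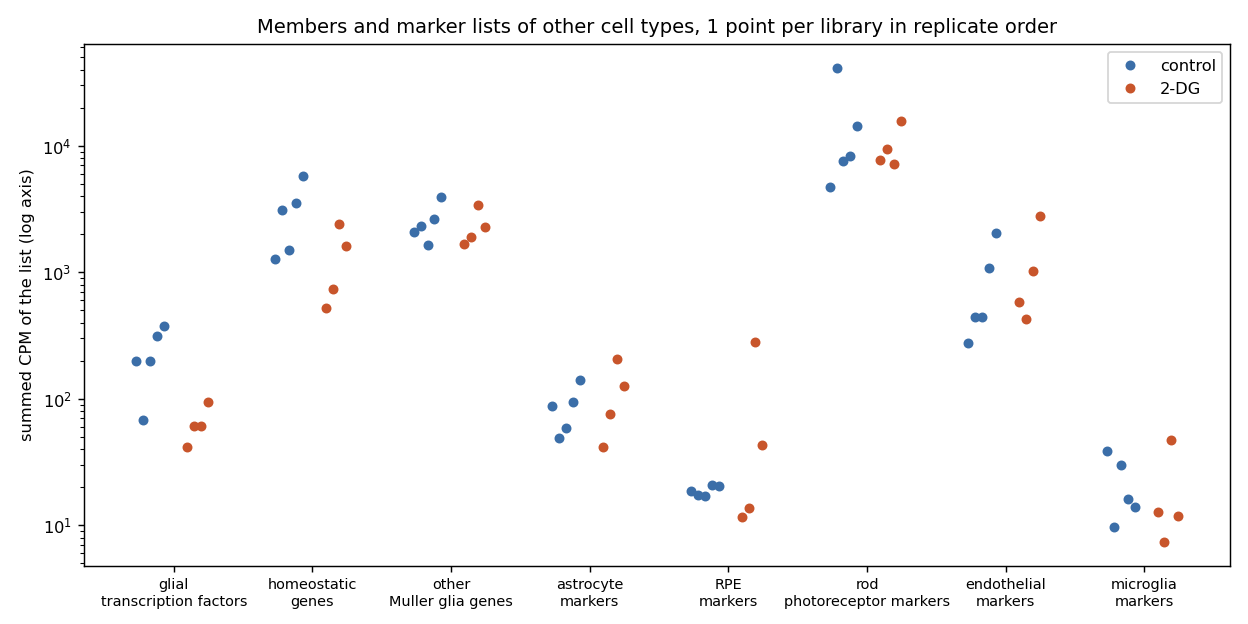
Summed CPM (log axis) of the 2 classes of members and of marker lists of other cells, 1 point per library in replicate order, control left and 2-DG right of each position. The transcription factors sum to 68 to 373 CPM in control and 41.3 to 94.9 in 2-DG, with control replicate 2 as the low control, and the RPE list reaches 282 CPM in 2-DG replicate 3.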

How the data were processed

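RNA-seq of 5 control and 4 2-DG retinal explant cultures was analysed. Groups and replicate numbers come from sample titles and the treatment label; the protocol text attached to every sample names 2-DG. Per the labels, a stranded kit for total RNA was used with an input of 4 ng, libraries were amplified over 13 cycles, and read pairs had 101 bases. The authors deposited estimated counts per gene and per transcript, which were not scaled between libraries, and CPM on a scaled library size for 12568 genes, a normalized signal whose deposited columns sum to 936039 to 1214015. The submitters' processing notes name kallisto and GRCm38; versions are not given in the sources used here. How gene values were made from transcripts is not stated. A deposited table of 2-DG against control (fold changes and p-values) was not used. Columns without a sample numbered 0.

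Estimated counts were rounded, filtered with filterByExpr, scaled with TMM and tested with edgeR 4.0.16 (glmQLFit with legacy=TRUE, glmQLFTest; group as the only term) in R 4.3.3. P-values were adjusted over 21049 genes. The SE is the absolute log2 fold change divided by the square root of F. The 3-count limit covers counting error only. Log2 CPM had a prior count of 2. The code of the fit was run on simulated counts with the same dispersion for all genes and no library that stood apart, unlike these data. TPM used GENCODE M21 lengths (141469 of 142699 transcripts, 99.5% of counts). Alternatives were DESeq2 1.42.0, limma-voom from limma 3.58.1, surrogate variables from sva 3.50.0, other scalings, no filter, limma on deposited CPM, a replicate block and each library left out; the fit without both control replicate 2 and 2-DG replicate 3, list counts without either, leave-one-out calls of list genes and the sums of transcript counts were added after seeing the data. Members, lists and tests were chosen with earlier results of these data known. The text names all members; of other lists the genes with an unadjusted p below 0.05, at most 5 by p, or else that of smallest p; the 5 genes most like Sox9 and Rlbp1; and RPE markers beside Rlbp1. Amacrine, microglia, rod and oligodendrocyte lists are given as counts and sums, and Gfap, Apoe, Nes, Edn2, Rpe65, Best1 and Rdh5 were named after their values were seen. Gene symbols were found for 55227 of 55487 IDs.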

Additional observations from a re-analysis of the deposited data

Results flagged for a closer look

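In 5 of 26 group-wise checks of the members and class means, the highest library of the 2-DG group stood apart from the other 3 by a gap large relative to the range (Dixon's criterion). Chance gives such a gap in about 1 of 20 groups, and the members are not independent of each other. In 2-DG replicate 3 these were Aqp4 (67.3 CPM, the next library having 8.59), Kcnj10 (56.4, next 7.32), Slc1a3 (151, next 57.4) and Sox8 (11.6, next 3.98). In 2-DG replicate 4 it was Hes1 (44.4 CPM, next 11.5).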

How the results depend on the processing

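With edgeR, 0 genes passed an adjusted p of 0.05 over the whole table, and the number was 284 with DESeq2, 1222 with limma-voom and quality weights, 725 with 2 surrogate variables, and 0 to 16 with each library left out. Members past it numbered 2, 5 and 3 in those 3 fits and 0 in every other. The 5 members lower at an unadjusted p below 0.05 (4.83% of all genes) became 8 with limma-voom (15.4%), 3 with 2 surrogate variables (10.2%), 2 to 8 with each library left out and 8 without both control replicate 2 and 2-DG replicate 3 (6.29%); the 5 transcripts became 2 to 8 with each library left out. Aqp4 and Kcnj10 changed sign to -1.21 and -1.37 with limma-voom, -0.73 and -0.71 on log2(deposited CPM + 1), -0.81 and -0.88 with + 0.25, -1.63 and -1.77 without 2-DG replicate 3, and -1.68 and -1.26 without both (leaving out other libraries gave up to 0.53 and 0.77). The cause was not tested. The class medians stayed between -1.49 and -1.01 for transcription factors and between -1.68 and -0.30 for homeostatic genes in all fits run. Class medians with each library left out were -1.39 to -1.01 and -1.66 to -0.63, and the class shift -0.70 to 0.06.

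Replicate numbers did not pair the libraries (r of same-numbered deviations 0.451, -0.155, 0.102 and 0.205; 2-DG replicate 1 alone correlated best with its own number). A replicate block over numbers 1 to 4, which drops control replicate 5, left 3 members lower at an unadjusted p below 0.05 (3.06% of all genes) and gave -0.72 for Aqp4 and -0.92 for Kcnj10. Depth limits Kcnj10 and Sox8 most (12 and 30 counts in their lowest library).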
